A study of Arabidopsis thaliana with 17 samples.

Results

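The genes described here are 10 Arabidopsis thaliana genes of root hair formation: the regulators GL2 (AT1G79840), RHD6 (AT1G66470), RSL2 (AT4G33880) and RSL4 (AT1G27740), and the growth genes COW1 (AT4G34580), RHD2 (AT5G51060, also named RBOHC), LRX1 (AT1G12040), LRX2 (AT1G62440), EXPA7 (AT1G12560) and RHS19 (AT5G67400). They were taken by gene identifier from the 37336 features of each deposited table, and all 10 were found. Their transcripts were measured by RNA-seq of whole roots, all from plants 14 days old, on agar medium with 1% sucrose and labelled mock for treatment. The groups were bamboo (2 libraries, numbered 2 and 3), in which the long non-coding RNA (lncRNA) BAMBOO is affected, and 2 sets of libraries of the wild-type accession Columbia, labelled Col-0 (3 libraries) and Col-0-b (3 libraries), the second being the wild type set against bamboo. The design text speaks of mutants, the name of the deposited table holds the letters KD, which no source spells out, and the labels do not say how BAMBOO was altered; bamboo replicate 1 was not analysed here. The study's title places BAMBOO as a decoy of NF-YA2, a subunit of the CCAAT-binding factor NF-Y, and bamboo roots were profiled to describe the effect of BAMBOO on transcription.

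Root hairs are tubular outgrowths of single epidermal cells that enlarge the surface for water and nutrient uptake. In the non-hair cells the homeodomain protein GL2 represses the hair fate, and in the hair cells the basic helix-loop-helix (bHLH) protein RHD6 starts hair formation and acts upstream of the related bHLH proteins RSL2 and RSL4, which drive elongation. Growth then takes place at the tip, where the lipid transfer protein COW1, the NADPH oxidase RHD2, the leucine-rich repeat extensins LRX1 and LRX2, the expansin EXPA7 and the peroxidase RHS19 act on membrane traffic, reactive oxygen and the cell wall.

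Depth ran from 13637179 to 24333119 reads a library. Bamboo replicate 2 stood apart on the main axis of a principal component analysis of log2 values (44.7% of variance), with a score of 34.7, against 6.45 for bamboo replicate 3 and -21.9 to -8.56 for the 3 Col-0-b libraries. Markers of other tissues were all above 0 in each of these 5 libraries. The summed level of 5 shoot markers was 1147 to 1209 normalized counts in bamboo and 790 to 2004 in Col-0-b, with its highest value in Col-0-b replicate 1. Sums for 3 stele markers (2276 to 2472 in bamboo, 2931 to 3199 in Col-0-b) and for 3 meristem markers (434 to 555 in bamboo, 576 to 651 in Col-0-b) lay lower in both bamboo libraries. In the stele this gap came mostly from the phloem sucrose transporter SUC2 (1358 and 1424 in bamboo, against 2065, 1852 and 2116 in Col-0-b), which passed the test as lower. SHR also lay below Col-0-b in both bamboo libraries (583 and 676, against 680, 699 and 772), but did not pass (log2 fold change -0.19). APL (0.07) overlapped and did not pass. The meristem markers PLT1, PLT2 and CYCB1;1 had values of -0.25, -0.39 and -0.34 with no call. Sums for 3 endodermis markers lay higher in both bamboo libraries (5091 to 5488, against 4640 to 4974 in Col-0-b), mostly through CASP1 (4204 and 3755 in bamboo, against 3418, 3677 and 3202 in Col-0-b), while SCR had a value of -0.13 and overlapped. The sums of 3 root cap markers (314 to 404, against 375 to 478) and the level of the cortex gene AT1G62500 (32.6 to 64.4, against 57 to 78.9) overlapped. The part of these shifts in the values below was not tested, and in whole roots fewer cells of a type and less RNA per cell cannot be told apart.

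None of the 10 root hair genes passed the test between bamboo and Col-0-b, in either direction. Over all 20274 features tested, 0.0691% were called as higher and 0.0641% as lower (limma, Benjamini-Hochberg adjusted p under 0.05). The bamboo libraries nonetheless lay wholly above the Col-0-b libraries for 4 of the 10 genes (RSL2, RSL4, COW1 and RHS19) and wholly below for 2 (RHD6 and LRX2). The same was true of 17.1% of all features above and 17.5% below. The same 6 genes had an unadjusted p under 0.05, which 8.60% of all features had as higher and 8.21% as lower. The median log2 fold change of the 10 genes was 0.03, against 0.00 for all features. Values are normalized counts, that is, reads over a library's size factor, and each fold change is the bamboo mean less the Col-0-b mean of log2(normalized count + 1). In reads, the genes ranged from 105 (RSL4 in Col-0-b replicate 2) to 1503 (RHD2 in bamboo replicate 3) in these 5 libraries.

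**Figure D1:**
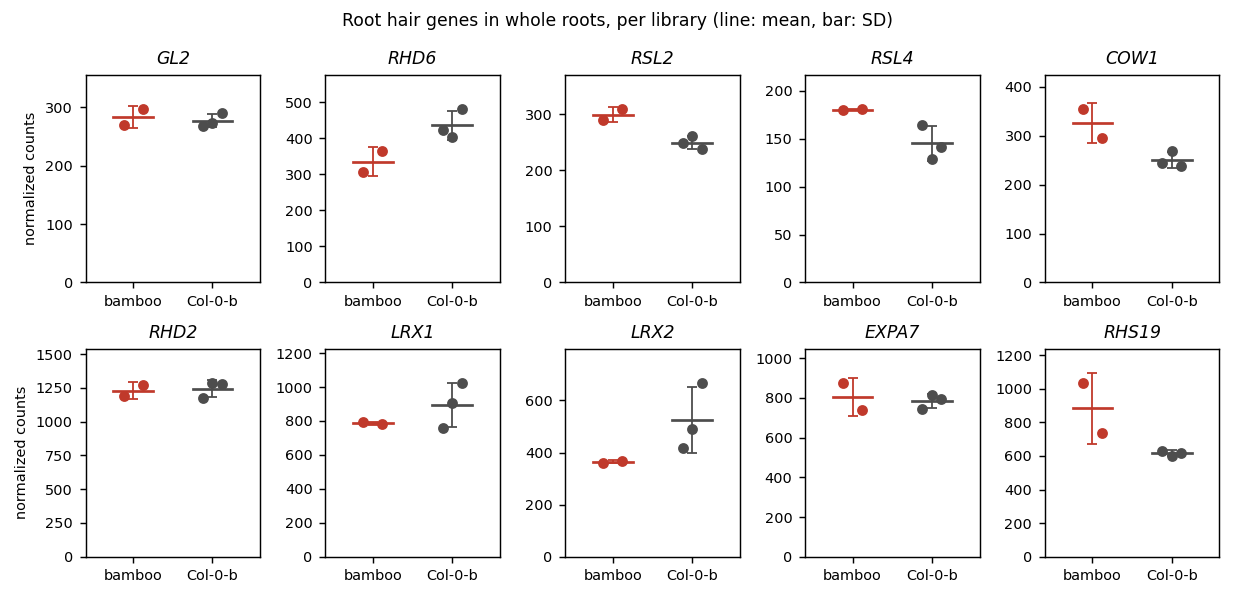
Normalized counts of the 10 root hair genes in each library of bamboo (left in each panel, n = 2) and Col-0-b (right, n = 3); points are libraries, horizontal lines are means and bars are SD. The bamboo points lie above all Col-0-b points for RSL2, RSL4, COW1 and RHS19 and below them for RHD6 and LRX2.

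GL2, the repressor of hair fate in non-hair cells, had 270 and 297 normalized counts in bamboo, against 268, 274 and 290 in Col-0-b. The libraries of the genotypes overlapped. Its log2 fold change was 0.03 (95% interval -0.20 to 0.26, SE 0.11, limma adjusted p = 0.912). RHD6, which starts hair formation, had 307 and 364 normalized counts in bamboo, against 424, 404 and 481 in Col-0-b. Both bamboo libraries were below every Col-0-b library, with means of 335 ± 40.2 in bamboo (n = 2) and 436 ± 39.7 in Col-0-b (n = 3; errors are SD). The log2 fold change of RHD6 was -0.38 (95% interval -0.62 to -0.14, SE 0.11), with an adjusted p of 0.151.

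The bHLH genes that act after RHD6 lay on the other side of Col-0-b. RSL2 had 290 and 309 normalized counts in bamboo, against 248, 261 and 238 in Col-0-b, a log2 fold change of 0.27 (95% interval 0.03 to 0.50, SE 0.11, limma adjusted p = 0.243). RSL4 had 180 and 181 in bamboo, against 165, 129 and 142 in Col-0-b, a log2 fold change of 0.32 (95% interval 0.01 to 0.62, SE 0.14, adjusted p = 0.279). For both genes every bamboo library was above every Col-0-b library, and the RSL4 values of the bamboo libraries were almost equal. These regulators were therefore split, with RHD6 lower and RSL2 and RSL4 higher in the bamboo libraries measured, by amounts that did not pass the test across all features.

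Of the genes that act at the growing tip, COW1, a phosphatidylinositol transfer protein that keeps hair growth at a single site, had 354 and 296 normalized counts in bamboo, against 244, 269 and 238 in Col-0-b. All bamboo values were above those of Col-0-b, and the log2 fold change was 0.37 (95% interval 0.12 to 0.63, SE 0.12, limma adjusted p = 0.166). RHD2, the NADPH oxidase that makes reactive oxygen species at the tip, had 1186 and 1274 normalized counts in bamboo, against 1171, 1282 and 1279 in Col-0-b. Its groups overlapped, and with a log2 fold change of -0.02 (95% interval -0.18 to 0.15, SE 0.08, adjusted p = 0.939) it had the narrowest interval of the 10 genes.

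The wall genes among the 10 had values on both sides of Col-0-b. LRX1, a leucine-rich repeat extensin that organises the hair wall, had 793 and 780 normalized counts in bamboo, against 761, 907 and 1021 in Col-0-b, with overlapping libraries and a log2 fold change of -0.18 (SE 0.11, and 0.435 as its adjusted p from limma). Its relative LRX2, which acts together with LRX1, had 361 and 369 in bamboo, against 419, 489 and 665 in Col-0-b. Both bamboo libraries were below all of Col-0-b, whose own values were widely spread (524 ± 127, SD, n = 3), and the log2 fold change of LRX2 was -0.49 (95% interval -0.88 to -0.11, SE 0.17, adjusted p = 0.209). Leaving out the highest library, Col-0-b replicate 3, gave -0.31.

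EXPA7, a hair-cell expansin that loosens the wall, had 872 and 737 normalized counts in bamboo, against 745, 816 and 794 in Col-0-b. The 2 bamboo libraries stood on either side of the Col-0-b values, and the log2 fold change was 0.03 (95% interval -0.17 to 0.23, SE 0.09, limma adjusted p = 0.893). RHS19, a class III peroxidase of hair cells, had 1031 and 734 normalized counts in bamboo, against 632, 599 and 618 in Col-0-b. All bamboo values exceeded those of Col-0-b, with means and SD of 882 ± 210 in bamboo (n = 2) and 616 ± 16.4 in Col-0-b (n = 3). Its log2 fold change of 0.50 (95% interval 0.22 to 0.77, SE 0.12) was the highest of the 10 genes and its adjusted p of 0.114 the lowest.

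Much of the size of 3 of these differences came from bamboo replicate 2. Set against the mean of Col-0-b, RHS19 differed by 0.74 in bamboo replicate 2 and 0.25 in replicate 3, COW1 by 0.50 and 0.24, and RHD6 by -0.50 and -0.26, all on the log2 scale. RSL2 (0.22 and 0.31), RSL4 (0.31 and 0.32), LRX1 (-0.17 and -0.19) and LRX2 (-0.51 and -0.48) had similar differences in both. The differences of GL2, RHD2 and EXPA7 had opposite signs in the 2 bamboo libraries. Fits with bamboo replicate 2 or 3 as the sole bamboo library gave the same sizes. A lone library shows no spread of its own, so no call of a gene is read from those fits here. Counts of their calls are given below, beside those over all features. On the recovered reads RHS19 passed with DESeq2 (adjusted p = 0.0216). DESeq2 called 188 of all features as higher and 115 as lower, against 14 and 13 with limma. With edgeR on the same reads RHS19 did not pass (adjusted p = 0.11).

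**Figure D2:**
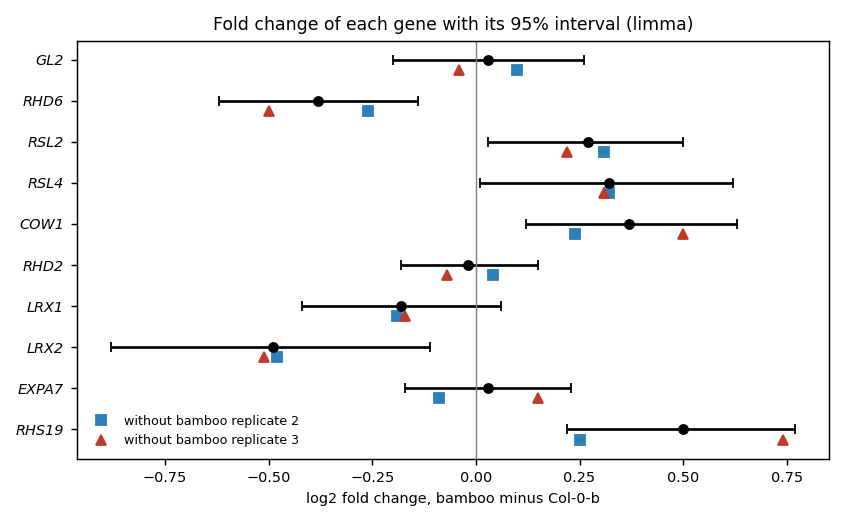
Log2 fold change of each of the 10 genes, bamboo minus Col-0-b, with its 95% interval from limma (black, 2 against 3 libraries), and the value without bamboo replicate 2 (blue squares) or without bamboo replicate 3 (red triangles). Intervals of RHD6 and LRX2 lie below 0, those of RSL2, RSL4, COW1 and RHS19 above 0, and the triangles and squares are farthest apart for RHS19.

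Transcripts of other genes of hair fate and growth were examined as a list of 58, of which 55 reached the level needed for testing. None of the 55 was called as higher or lower (background 0.0691% and 0.0641%). In 12 of them the bamboo libraries lay wholly above Col-0-b and in 10 wholly below (17.1% and 17.5% of all features), and 29 had a log2 fold change above 0 and 26 below, with a median of 0.02.

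Among 13 genes of epidermal cell fate, none passed the test, and 10 had a log2 fold change below 0 (median -0.15, against 0.00 for all features). EGL3, a bHLH protein of the complex that switches on GL2, had 173 and 230 normalized counts in bamboo, against 273, 292 and 301 in Col-0-b, so that both bamboo libraries were below all of Col-0-b. Its log2 fold change was -0.53 (SE 0.13, and 0.112 as its adjusted p from limma). Its partner proteins in that complex had values of -0.15 for the MYB protein WER, -0.20 for the bHLH protein GL3 and -0.12 for the WD-repeat protein TTG1. CPC, the mobile MYB protein that favours hair fate, had a value of 0.15. The extremes of the list were TTG2, a WRKY factor of epidermal cells (0.23), and TRY, a relative of CPC (-0.62), which had few reads (15.8 and 11.9 normalized counts in bamboo, against 27, 13.6 and 27.4 in Col-0-b). Taken by library, bamboo replicate 2 put the fate genes at a median of -0.27 and replicate 3 at -0.09.

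Of 9 further hair bHLH genes and repressors of hair growth, 7 were tested, none passed, and 5 had a value below 0 (median -0.11). RSL1, the closest relative of RHD6 and its partner in starting hairs, had 76.4 and 87.3 normalized counts in bamboo, against 125, 110 and 147 in Col-0-b. Both bamboo libraries were below all of Col-0-b, as for RHD6, and the log2 fold change was -0.62 (95% interval -0.99 to -0.26, SE 0.17, limma adjusted p = 0.128). The gene AT2G14760, listed as RSL3, a name that the RefSeq annotation used here does not hold, had the highest value of this list (0.50, SE 0.29). GTL1, a trihelix factor that ends hair growth, had a value of -0.09.

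Tip growth genes had values on both sides of Col-0-b. None of the 16 passed the test, 8 had a value above 0 and 8 below, and the median was 0.01. ROP2, the small GTPase that marks the site of the hair, had a log2 fold change of 0.02 (95% interval -0.15 to 0.19), SCN1, which confines ROP2 to that site, of 0.00 (-0.15 to 0.15), the receptor-like kinase gene ERU of 0.00 (-0.27 to 0.26) and the actin gene ACT2 of -0.01 (-0.18 to 0.16). The extremes were MRH6 (0.48, SE 0.14, limma adjusted p = 0.155) and GEF3, which activates ROP proteins (-0.34, SE 0.15, adjusted p = 0.288).

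Of 20 cell wall genes of hairs, 19 were tested and none passed, while 16 had a log2 fold change above 0, against 49.9% of all features, and their median was 0.26. PRP3, a proline-rich wall protein, had 1737 and 1227 normalized counts in bamboo, against 979, 1411 and 1306 in Col-0-b, and the groups overlapped (0.26, SE 0.21). The expansin EXPA18 had a value of 0.26 (SE 0.12, and 0.318 as its adjusted p from limma) and the gene AT4G26010 of 0.26 (SE 0.08, adjusted p = 0.179). The highest value, 1.01 for the proline-rich protein PRP1, had a 95% interval from -0.53 to 2.55. The lowest was that of CSLD3, a cellulose synthase-like protein of the hair wall, with 2580 and 2984 normalized counts in bamboo, against 3443, 3196 and 3572 in Col-0-b (-0.29, SE 0.08, adjusted p = 0.143). Bamboo replicate 2 alone put their median at 0.54. Without bamboo replicate 2 it was 0.10 with 13 of 19 above 0, and without Col-0-b replicate 1 it was 0.16 with 15 of 19.

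**Figure D3:**
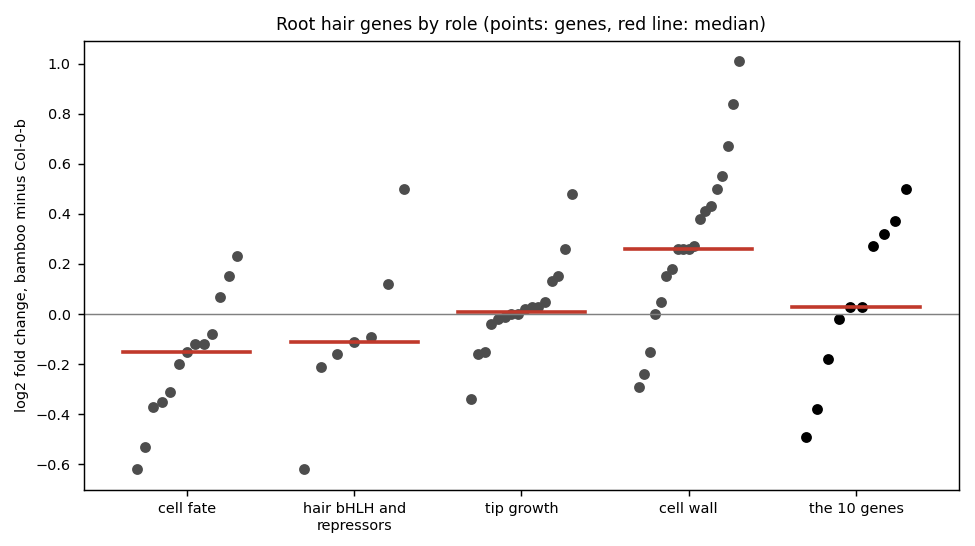
Log2 fold change, bamboo minus Col-0-b, of 55 other root hair genes in 4 groups by role and of the 10 genes described first; each point is a gene and red lines are medians. The medians lie at -0.15 (cell fate), -0.11 (hair bHLH and repressors), 0.01 (tip growth), 0.26 (cell wall) and 0.03 (the 10 genes), and no point passed the test across all features.

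The same genes were also measured in the second wild-type set. Col-0 came in a separate table of raw counts, so levels are given in CPM, reads scaled to the same total in every library, with no test between tables. COW1 had 16.7 and 14.3 CPM in bamboo, 51.4, 51.3 and 39.7 in Col-0, and 11.8, 12.9 and 11.5 in Col-0-b. Its order was thus Col-0, then bamboo, then Col-0-b, without overlap, and the Col-0 mean was 3.94 times that of Col-0-b, a ratio that 0.858% of all tested features reached. RHS19 had 48.6 and 35.6 CPM in bamboo, 81.2, 77.6 and 67.3 in Col-0, and 30.5, 28.6 and 29.8 in Col-0-b. The order was the same, again without overlap.

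RSL4 and RSL2 followed this order as well. RSL4 had 8.48 and 8.79 CPM in bamboo, 15.3, 18.3 and 13.9 in Col-0, and 7.95, 6.19 and 6.85 in Col-0-b, and RSL2 averaged 14.3 ± 0.943 in bamboo (SD, n = 2), 23.8 ± 5.68 in Col-0 and 12 ± 0.502 in Col-0-b (SD, n = 3 each). Means in Col-0 were 2.54 times those of Col-0-b for RHS19, 2.26 times for RSL4, 1.99 times for RSL2 and 1.33 times for RHD2. RHD2 had 55.9 and 61.8 CPM in bamboo, 93.5, 79 and 66.8 in Col-0, and 56.5, 61.3 and 61.7 in Col-0-b, so that bamboo and Col-0-b overlapped below Col-0. Counting COW1, 3 of the 10 genes had a ratio of at least 2, as had 4.83% of all tested features. RHD6 was the 1 gene with all Col-0 libraries below Col-0-b (14.5 and 17.6 CPM in bamboo, 18.5, 15.8 and 11.4 in Col-0, and 20.4, 19.3 and 23.2 in Col-0-b), and its bamboo and Col-0 libraries overlapped. LRX2 averaged 17.5 ± 0.644 in bamboo, 17.1 ± 5.01 in Col-0 and 25.2 ± 6.15 in Col-0-b, with overlap between the wild-type sets. GL2, LRX1 and EXPA7 overlapped in all 3 groups.

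All libraries of Col-0 lay above those of Col-0-b for 5 of the 10 genes and below for 1, where 26.9% of all tested features lay above and 26.0% below. Relative to the mean of Col-0-b, bamboo and Col-0 stood at 1.29 and 3.94 times for COW1, 1.42 and 2.54 for RHS19, 1.23 and 2.26 for RSL4, 1.2 and 1.99 for RSL2, 0.764 and 0.725 for RHD6 and 0.692 and 0.677 for LRX2. The genes whose bamboo and Col-0-b libraries overlapped stood at 1.02 and 1.08 (GL2), 0.983 and 1.33 (RHD2), 0.873 and 0.982 (LRX1) and 1.02 and 1.1 (EXPA7). Both ratios of a gene share the Col-0-b libraries as denominator, so they are not independent of each other. For 8 of the 10 genes both bamboo libraries were inside the range of the 6 wild-type libraries, as were those of 58.8% of all tested features. For COW1, RHS19, RSL4 and RSL2 the top of that range was set by Col-0, far above Col-0-b. The exceptions were small: RHD2 had 55.9 CPM in bamboo replicate 2, against a wild-type minimum of 56.5, and EXPA7 had 35.8 in bamboo replicate 3, against a minimum of 35.9.

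**Figure D4:**
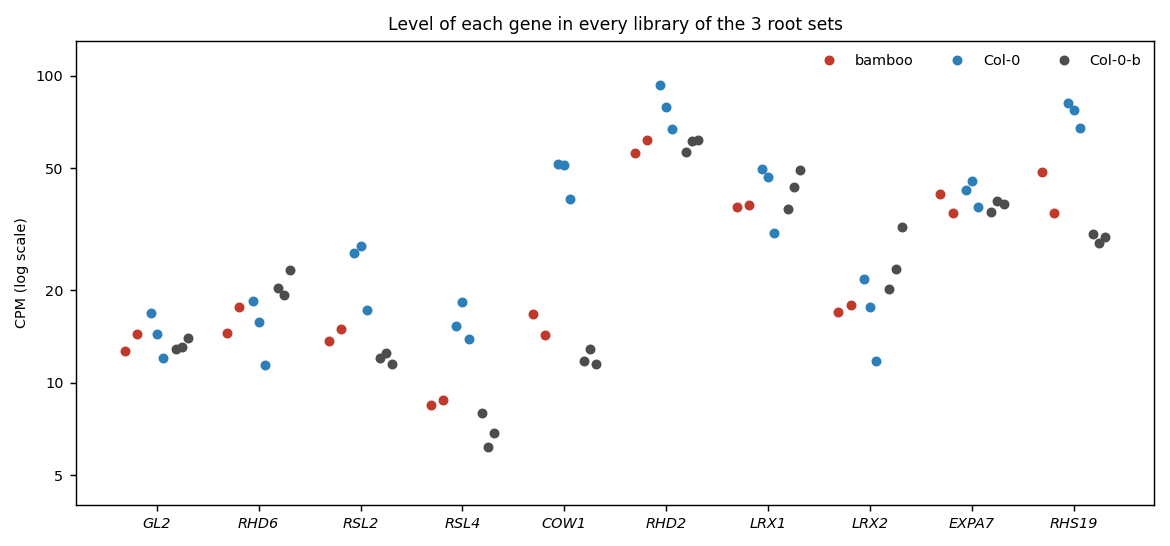
CPM (log axis) of the 10 genes in each library of bamboo (red, n = 2), Col-0 (blue, n = 3) and Col-0-b (dark grey, n = 3). For COW1, RHS19, RSL4 and RSL2 the bamboo points lie between the Col-0 points and the Col-0-b points, while GL2, LRX1 and EXPA7 overlap in all 3 groups.

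The wall genes separated the wild-type sets most often among the 4 lists: Col-0 lay wholly above Col-0-b in 16 of the 19 tested and wholly below in 1, EXPA17 (all tested features 26.9% and 26.0%), and the median ratio of the means was 2.13, against 1.01 for all tested features. On TMM-scaled totals, where 25.2% of all tested features lay above and 28.2% below, the count above was 15, CSLD3 being the gene that then overlapped. EXPA17, an expansin, had 12.1, 8.35 and 35.9 CPM in Col-0, against 44.6, 37.8 and 49.7 in Col-0-b. Its Col-0 replicate 3 was thus close to Col-0-b. EXPA17 was named after its values were seen. PRP1 had 14.5 and 8.05 CPM in bamboo, 55.3, 45 and 15.3 in Col-0, and 2.89, 7.31 and 7.34 in Col-0-b, so that Col-0 replicate 3 was far below the other Col-0 libraries and close to bamboo. XTH14 (120, 113 and 59.1 CPM in Col-0) and RHS18 (65.4, 59.1 and 25.8) were likewise lowest in that library. CSLD3 differed little between the Col-0 libraries (185, 185 and 175). For genes such as XTH14 and RHS18 the Col-0 mean was raised mostly by replicates 1 and 2. These 2 genes were named here after their values were seen. PRP3 averaged 70.7 ± 15.8 CPM in bamboo (n = 2), 91.9 ± 17.2 in Col-0 and 59.2 ± 10.6 in Col-0-b (n = 3 each, SD). Tip growth genes were above in 11 of 16 and below in 0, with a median ratio of 1.30. Cell fate genes were above in 3 and below in 3 of 13 (median ratio 0.99), and the further bHLH genes and repressors above in 2 and below in 2 of 7 (0.87), or below in 4 on TMM-scaled totals. The counts of the fate genes were near the shares over all features, as was the share of the further bHLH genes on CPM. The labels do not say how the 2 wild-type sets differ, so plants, handling and counting cannot be told apart in these ratios.

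**Figure D5:**
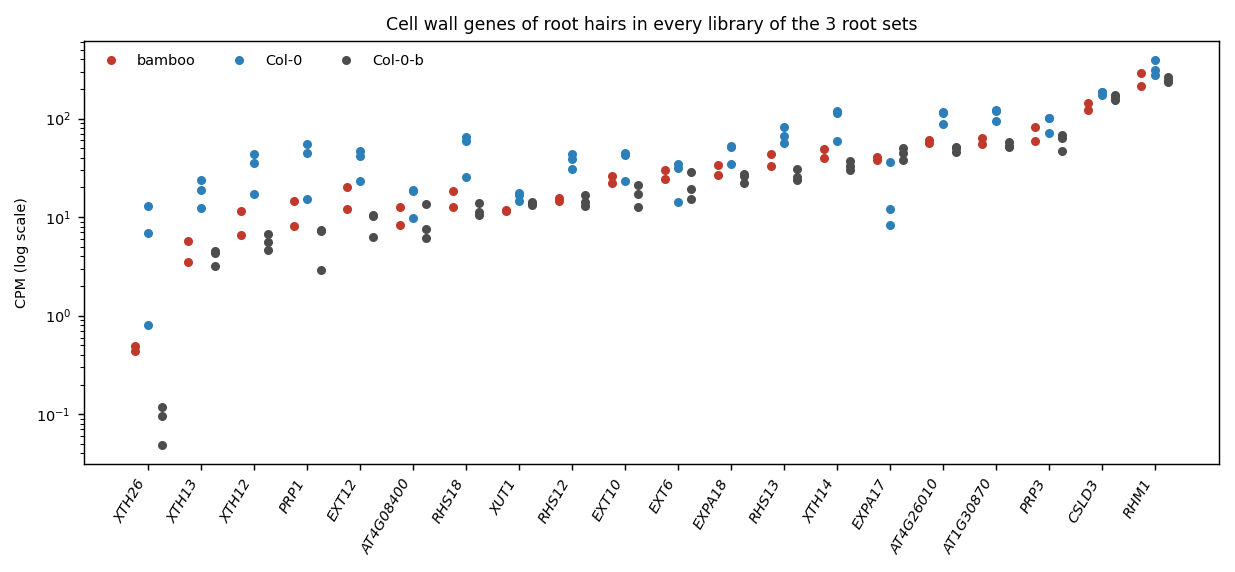
CPM (log axis) of 20 cell wall genes of root hairs in each library of bamboo (red), Col-0 (blue) and Col-0-b (dark grey), ordered by their mean in Col-0-b. In 16 of the 19 tested genes every Col-0 point lies above every Col-0-b point, and EXPA17 is the gene with all Col-0 points below; XTH26, at the left, was too low to be tested.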

How the data were processed

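Stranded mRNA libraries were sequenced from one end, per the labels' protocols. The tools named in the submitters' processing notes are featureCounts, Subread 1.6.5, STAR 2.7.2a and Trimmomatic, with TAIR10 as genome build. The strand setting and the handling of reads that match several genes are not given in the sources used here. Near-identical pairs (ACT2 and ACT8, extensins) and genes that overlap others in the annotation (GL2, EXPA7 and RHS19 among the 10) are therefore uncertain to that extent. The authors deposited raw counts for Col-0. Values of the bamboo table are a signal that the authors deposited, gene counts scaled by size factors of 0.811 to 1.18. Whole reads were recovered from it, since 100% of values were whole multiples of a step within a tolerance of 0.01. The wild-type columns beside bamboo are named only as wild type and were taken as Col-0-b, and those named col in the other table as Col-0; 6 columns that could not be tied to a line by name were not used.

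Features reaching 10 normalized counts in 2 or more libraries were tested on log2(normalized count + 1), which understates changes of low genes, with limma 3.58.1 in R 4.3.3 (trended, robust, group as the only term, Benjamini-Hochberg adjustment over all 20274 features, threshold 0.05). edgeR 4.0.16 (quasi-likelihood) and DESeq2 1.42.0 on the recovered reads, a pseudocount of 8, no filter, TMM scaling, a replicate block and leaving out each library were tried as alternatives. On simulated data of this design the fit recovered most of the genes changed by known folds, and its share of false calls was above the nominal threshold. The smallest simulated fold was larger than the change of any of the 10 genes, so recovery of changes of their size was not simulated. The members, lists and the rule for named genes (all 10 genes, 17 others by role and the extremes of each list) were chosen with earlier results of these data known. Names came from a RefSeq gene table of assembly TAIR10.1, where 37051 of the 37336 features were found; its build is not the files' own, so no coordinates are printed. Promoter motifs, protein comparisons and correlations over the 8 libraries had been planned, but sequences were not analysed here. No correlation is given, because Col-0 lay wholly above Col-0-b in 26.9% of all tested features and wholly below in 26.0% (CPM). Nothing says that replicates came from separate cultures, so p-values measure the spread between these libraries, which may be technical.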

Additional observations from a re-analysis of the deposited data

How the results depend on the processing

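All features called as higher and lower in bamboo, 14 and 13, became 46 and 29 with no low-value filter, 188 and 115 with DESeq2, and 6 to 894 and 4 to 1052 when 1 library was left out. The highest counts came without bamboo replicate 3. Of the 10 genes, 0 were called in either direction by limma and by edgeR, and 4 had an unadjusted p under 0.05 as higher and 2 as lower. DESeq2 called 1 as higher (RHS19, log2 fold change 0.52), and leaving out 1 library gave 0 to 2 higher and 0 to 1 lower, the calls all coming without bamboo replicate 3. Of the other root hair genes, 0 were called, while DESeq2 called 1 as higher (RHS13). Leaving out any 1 of the Col-0-b libraries gave 0 calls of these genes in either direction. The replicate numbers 2 and 3 are shared by the genotypes, but nothing says they pair the libraries, and the differences between the numbers correlated at 0.0789 across genes. With a replicate block, 513 of all 20274 tested features were higher and 379 lower. Of the 10 genes, limma then called 2 as lower (RHD6 at -0.40, adjusted p = 0.0453, and LRX2 at -0.64, adjusted p = 0.0139). Of the 55 other root hair genes tested, 2 were called as higher (RHS13 and XTH14) and 2 as lower (CSLD3 and EGL3). Over the alternatives that kept both bamboo libraries, adjusted p ran from 0.0453 to 0.436 for RHD6 and 0.0139 to 0.422 for LRX2. The range was 0.1 to 0.438 for COW1 and 0.0216 to 0.338 for RHS19. The lowest values came from limma with the replicate block, or from DESeq2 for RHS19, and the highest from limma without Col-0-b replicate 3. The sign turned in genes whose value was near 0: with 1 library left out, GL2 ran from -0.04 (without bamboo replicate 3) to 0.10, RHD2 from -0.07 to 0.04 (0.01 and 0.00 without Col-0-b replicates 2 and 3) and EXPA7 from -0.09 to 0.15 (-0.01 without Col-0-b replicate 1, and also -0.01 with the replicate block). The other 7 genes kept their sign in all 11 alternatives. RHS13 and XTH14 were named after their values were seen. Where a lone bamboo library is left, it is assumed to vary like Col-0-b. The cause of these differences was not tested. Of 30 mean levels in CPM, 29 moved by less than their SD on TMM-scaled library sizes. Counts of genes above 0 by alternative were chosen after seeing the data.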

Other observations

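Of the listed root hair genes, 3 were too low to be tested. XTH26, a xyloglucan-modifying enzyme, had 10 and 12 reads in bamboo and 2, 2 and 1 reads in Col-0-b, or 0.439 and 0.493 CPM in bamboo, 13, 6.84 and 0.807 in Col-0, and 0.0964, 0.118 and 0.0489 in Col-0-b. The Col-0 libraries alone thus spanned a wider range than the difference between bamboo and Col-0-b. AT5G43175, listed as RSL5, had 0 and 1 reads in bamboo and 0 in each Col-0-b library. AT1G76880, listed as DF1, stood at 0 in all 8 libraries. The RefSeq annotation used here holds neither of these names. Of the annotated genes that overlap the 10, AT5G67410 beside RHS19 had a log2 fold change of -0.06 (limma adjusted p = 0.947). AT1G79850 and AT1G09927 beside GL2 were listed at a mean of 0 normalized counts in bamboo and in Col-0-b. AT1G12570 beside EXPA7 averaged 0.932 in bamboo and 2.65 in Col-0-b. None of these genes beside GL2 and EXPA7 reached the level for testing. Whether a 0 stands for no transcript or for reads not assigned to the gene was not tested.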
